A study of Mus musculus with 18 samples.

Results

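Transcripts of 8 genes that handle arginine, nitric oxide, itaconate and tryptophan were followed in mouse eosinophils cultured with apoptotic cells. The genes were Nos2, Arg1, Arg2, Ass1, Asl, Acod1, Slc7a2 and Ido1, chosen by symbol among the 54446 genes of the deposited table, and each matched 1 gene identifier. Eosinophils came from the peritoneal cavity of Il5Tg mice of the NJ.1638 line, which overexpress Il5 from a transgene, with the strain labelled C57BL/6 and the age of the mice not given in the sources used here. All 6 groups received apoptotic cells (ACs), namely wild-type thymocytes treated with dexamethasone, 5 for each eosinophil, for 18 h. The 4 groups of the Type 1 experiment had ACs with no further stimulus, with E. coli, with IFN-γ or with both, and the 2 groups of the IL-4 experiment had ACs with or without IL-4, with 3 libraries each and 18 in all. For both stimuli the study describes IFN-γ followed by E. coli, and the interval is not given in the sources used here. After culture a bead selection on Siglec-F recovered the eosinophils, whose RNA was sequenced by CEL-Seq2, a method that reads the 3′ ends of transcripts. Eosinophils of a mouse with constant high IL-5 may differ from those of other mice, and no group without ACs was analysed here.

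Arginine enters many leukocytes through the cationic amino acid carrier CAT-2, the product of Slc7a2. Inside the cell it is a substrate both of the inducible nitric oxide synthase (Nos2), which makes nitric oxide and citrulline, and of the arginases (Arg1 in the cytosol, Arg2 in mitochondria), which make urea and ornithine, a precursor of polyamines. Argininosuccinate synthase (Ass1) and argininosuccinate lyase (Asl) turn citrulline back into arginine. Acod1 makes itaconate from cis-aconitate of the citric acid cycle and Ido1 opens the ring of tryptophan on the way to kynurenine, and both are known as genes of activated myeloid cells.

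The promoters of Ass1 and Acod1 are shown because, of the 8 genes, these 2 matched an entry in the promoter table. Both genes rose with IFN-γ, and with E. coli added Ass1 was lower than with IFN-γ alone and Acod1 was not. The sequences are RefSeq sequences on GRCm38.p6, given 5′ to 3′ on the plus strand and ending at the base before the annotated gene start.
Ass1, chr2:31470020-31470206: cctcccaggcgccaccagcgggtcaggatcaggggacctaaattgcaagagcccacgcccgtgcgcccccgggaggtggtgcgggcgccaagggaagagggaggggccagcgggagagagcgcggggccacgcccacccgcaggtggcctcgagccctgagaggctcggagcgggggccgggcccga
Acod1, chr14:103046762-103046976: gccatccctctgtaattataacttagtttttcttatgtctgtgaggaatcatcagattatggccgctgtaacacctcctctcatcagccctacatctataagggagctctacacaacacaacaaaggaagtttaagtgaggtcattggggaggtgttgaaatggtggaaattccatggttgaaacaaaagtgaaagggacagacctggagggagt
The Ass1 stretch of 187 bases was 75.4% G + C with 18 CpG dinucleotides, and the Acod1 stretch of 215 bases was 43.3% G + C with 1. Over all 32851 promoters, each taken as 250 bases before its start, the median was 52.4% G + C. The 5th and 95th percentiles were 34.8% and 73.6%, so the shorter Ass1 stretch lay above the upper of these. Neither stretch held, on either strand, the letters TTCNNNGAA (a GAS element) or TATAAA. Neither matched the fixed pattern searched for the ISRE, the STAT site with 4 bases between its arms or the kappaB site. Over the 250 bases before the start, the patterns searched were present in 7.02%, 12.4%, 2.98%, 5.85% and 1.41% of all promoters, in that order. The GAS element and the STAT site share their arms. Looser forms of these sites, such as other kappaB sequences, were not searched, so their absence from either stretch was not tested.

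Between 779421 and 7782072 reads were counted on genes per library. The 2 shallow libraries were replicate 3 of both groups of the IL-4 experiment, where 3 reads, the limit that a count of 0 allows, stand for normalized counts of 16.08 and 15.42, so the low levels of Arg2, Ass1 and Ido1 are coarse there. Summed normalized counts of 10 eosinophil markers ranged from 10616 to 27556 over the 18 libraries. The 9 macrophage markers summed to between 5370 and 28372, with none at 0, so transcripts of this list were abundant in RNA labelled as eosinophil. The study reports by flow cytometry that the selected cells were nearly all eosinophils. By quantitative PCR it also found Tim4 (Timd4) and, to a lesser extent, Mertk mRNA in peritoneal eosinophils. By flow cytometry it found no TIM-4 protein on eosinophils. Which cells the marker RNA came from was not tested. Neutrophil markers summed to between 1043 and 4770, dendritic cell markers to between 40.9 and 175, thymocyte markers to between 50.4 and 212, mast cell markers to between 5.64 and 66.5 and B cell markers to between 7.13 and 72.8. Most of the neutrophil sum was Retnlg, with group means from 923 to 3996. Of the 9 neutrophil genes, 3 had a mean of at least 10. In such bulk RNA, fewer cells of a type and less RNA per cell cannot be told apart.

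Each stimulus was compared with the ACs of its own experiment by limma on log2(normalized count + 1), and a transcript was called higher or lower at a Benjamini-Hochberg adjusted p under 0.05 over all genes tested and at least 1.5-fold. With E. coli, 3 of the 8 genes were called higher (Nos2, Acod1 and Slc7a2), against 5.05% of the 10166 genes tested, and Arg1 was called lower, against 5.25%. With IFN-γ, 6 were called higher (those 3, Arg1, Ass1 and Ido1), against 11.4%, and Arg2 was called lower, against 9.96%. With both IFN-γ and E. coli, 5 were called higher (Nos2, Acod1, Slc7a2, Ass1 and Ido1), against 14.7%, and 0 lower, against 17.2%. With IL-4, Acod1 and Slc7a2 were called higher, against 0.74% of the 10669 genes tested, and 0 were called lower, against 0.347%. The median log2 fold change of the 8 genes was 0.96 with E. coli, 2.94 with IFN-γ, 2.07 with both and 0.34 with IL-4, and over all genes tested it was 0.00, 0.00, -0.05 and -0.01. All 8 genes passed the minimum mean of 10 normalized counts, but Ido1 did so only through the groups where it was high. The 3 comparisons of the Type 1 experiment share their ACs libraries. Of the counts of 0, that with both stimuli was 1 at an unadjusted p under 0.05 (Asl) and that with IL-4 was 0, and edgeR and DESeq2 also gave 0 for both.

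**Figure D1:**
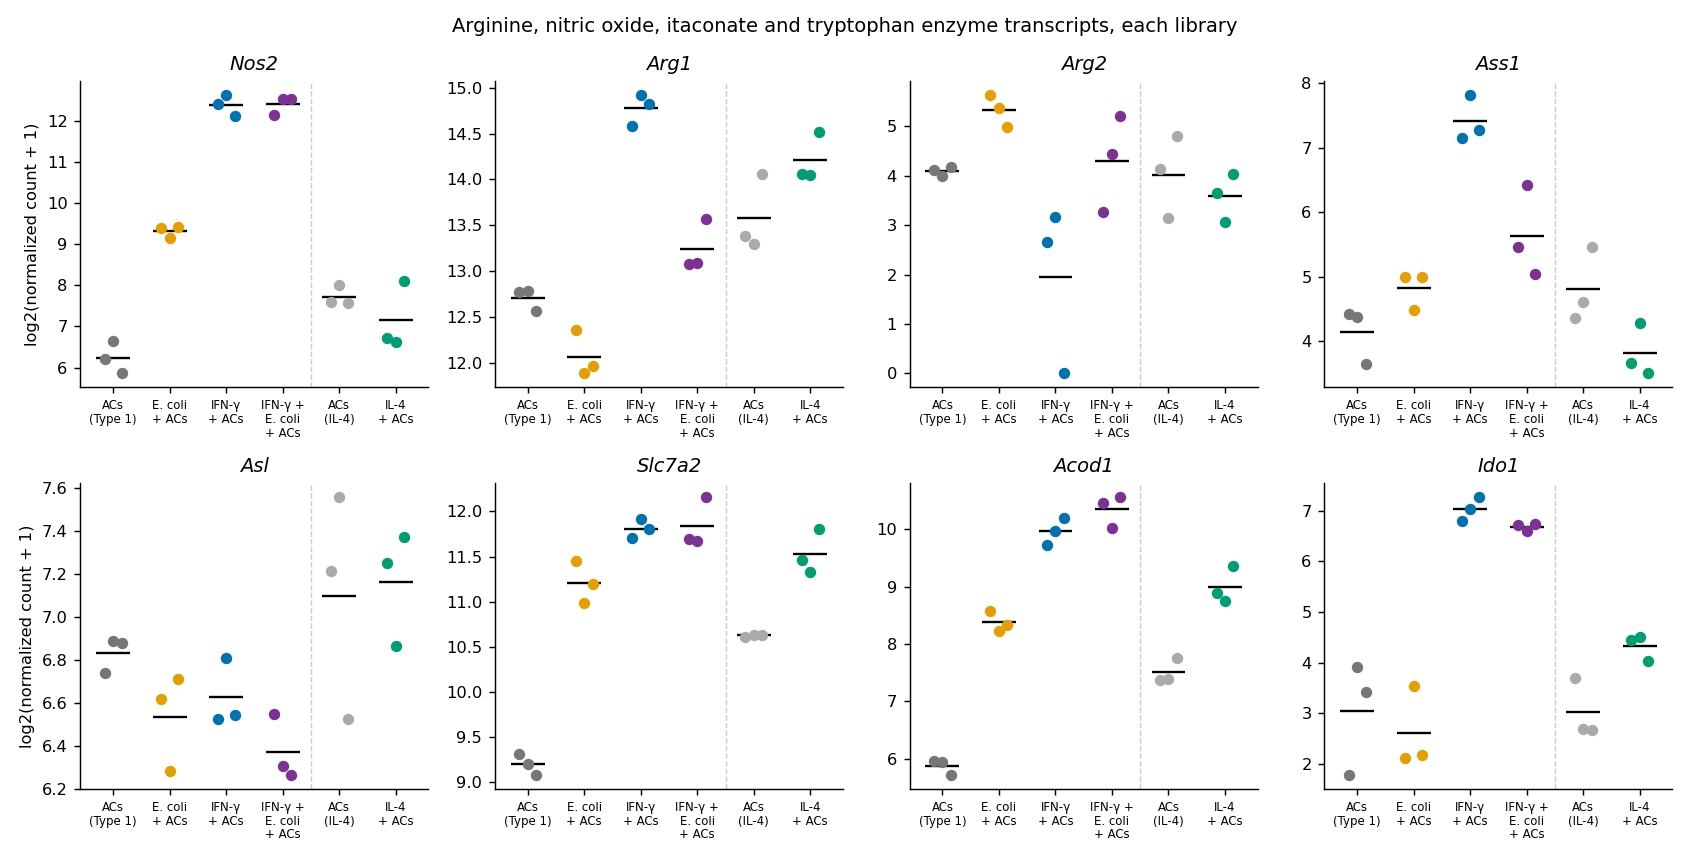
Level of each of the 8 transcripts as log2(normalized count + 1), with 1 point per library, a line at the mean of the 3 libraries of each group and a dashed line between the Type 1 and the IL-4 experiment. Nos2 and Ido1 are highest in the 2 groups with IFN-γ, while Arg1 and Ass1 are highest with IFN-γ without E. coli.

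**Figure D2:**
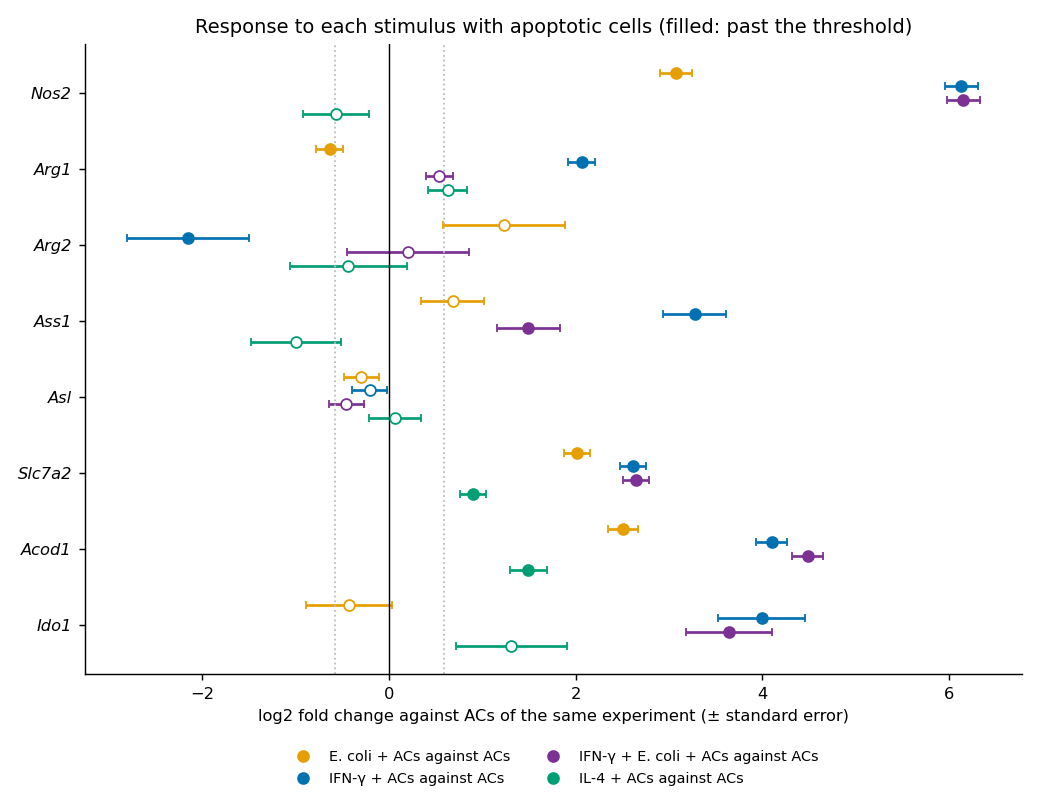
Log2 fold change of each transcript with each stimulus against ACs of the same experiment, with bars of 1 standard error from limma. Filled points passed an adjusted p of 0.05 and 1.5-fold, and dotted lines mark 1.5-fold in either direction. IFN-γ moved 7 of the 8 genes past the threshold and Asl did not pass it under any.

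Slc7a2 (ENSMUSG00000031596.15, chromosome 8, 40862396 to 40922308, plus strand of GRCm38) encodes the carrier that brings arginine in. Its normalized counts with ACs alone were 539, 589 and 636 in the Type 1 experiment, 2034, 2350 and 2791 with E. coli, 3338, 3585 and 3860 with IFN-γ and 3253, 3307 and 4589 with both. In the IL-4 experiment they were 1564, 1587 and 1591 with ACs alone and 2564, 2813 and 3577 with IL-4. Every stimulated library lay above every ACs library of its experiment, and the IFN-γ and the combined group overlapped.

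The rise of Slc7a2 was 4.04-fold with E. coli (log2 2.01 ± 0.14 SE, adjusted p = 1.1e-08, limma), 6.11-fold with IFN-γ (2.61 ± 0.14, adjusted p = 5.2e-11) and 6.24-fold with both (2.64 ± 0.14, adjusted p = 2.8e-11). IL-4 gave 1.87-fold (0.90 ± 0.14, adjusted p = 0.015, limma). With fewer libraries the IL-4 value stayed at 0.89, 0.91 and 0.94 but did not pass without replicate 1 or 2 of the ACs or replicate 1 of IL-4 + ACs (adjusted p = 0.071, 0.054 and 0.060, limma). Adding E. coli to IFN-γ left the level where it was within error (0.03 ± 0.14, adjusted p = 0.90). The combined level was 1.55-fold that with E. coli alone (0.63 ± 0.14, adjusted p = 0.0027, limma), which fell under 1.5-fold without replicate 2 of E. coli + ACs (0.52) or replicate 3 of the combined group (0.47).

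Nos2 (ENSMUSG00000020826.8, chromosome 11, 78920787 to 78960254, plus strand), the inducible nitric oxide synthase, had the largest log2 fold change of the 8 genes with each stimulus of the Type 1 experiment, and not with IL-4. In the Type 1 experiment it stood at 57.1, 73.2 and 99.5 normalized counts with ACs alone, and at 565, 671 and 680 with E. coli. With IFN-γ it reached 4383, 5408 and 6298, and with both stimuli 4509, 5898 and 5899. These last 2 groups overlapped, and each lay above all libraries of the other 2.

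On the log2 scale E. coli raised Nos2 by 3.07 ± 0.17 (SE, 8.42-fold, adjusted p = 1.3e-09, limma), and IFN-γ by 6.13 ± 0.17 (70.1-fold, adjusted p = 2.2e-14). The combination differed from IFN-γ alone by 0.02 ± 0.17 (adjusted p = 0.94) and from E. coli alone by 3.08 ± 0.17 (adjusted p = 2.3e-10). With IL-4 the libraries stood at 97.5, 105 and 272, against 188, 192 and 257 with ACs alone. The groups overlapped through replicate 3, and the difference of -0.57 ± 0.35 did not pass (adjusted p = 0.65, limma). Without the shallow replicate 3 of both groups, an alternative chosen after seeing the data, Nos2 was called lower with IL-4 (-1.13, adjusted p = 0.0018), and also with array weights (-0.95, adjusted p = 0.0013).

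Ass1 (ENSMUSG00000076441.9, chromosome 2, 31470207 to 31520672, plus strand) takes the first step from citrulline back to arginine. Its counts were low with ACs alone, at 11.4, 19.7 and 20.3, and with E. coli, at 21.3, 30.8 and 31.0. With IFN-γ they were 141, 154 and 225, and with both stimuli 31.7, 42.8 and 84.3. The IFN-γ libraries stood above all others, and the combined group lay between IFN-γ and E. coli.

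IFN-γ raised Ass1 9.68-fold (log2 3.27 ± 0.34 SE, adjusted p = 5.1e-07, limma) and the combination 2.81-fold (1.49 ± 0.34, adjusted p = 0.0017). The combined level was 0.291 of that with IFN-γ alone (-1.78 ± 0.34, adjusted p = 0.00096, limma). E. coli alone gave 0.68 ± 0.34 (adjusted p = 0.21), with no library overlapping the ACs. In the IL-4 experiment Ass1 was at 19.6, 23.4 and 42.9 with ACs and at 10.3, 11.6 and 18.4 with IL-4, every IL-4 library lower, and the difference of -0.997 ± 0.485 did not pass (adjusted p = 0.55).

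Asl (ENSMUSG00000025533.15, chromosome 5, 130011258 to 130029247, minus strand) completes that recycling and did not pass the threshold under any of the 4 stimuli. It ranged from 106 to 117 normalized counts with ACs, from 76.9 to 104 with E. coli, from 91.0 to 111 with IFN-γ and from 75.9 to 92.7 with both. The log2 differences from ACs were -0.30 ± 0.19 (SE, adjusted p = 0.35, limma), -0.21 ± 0.19 (0.45) and -0.46 ± 0.19 (0.059), in that order. The E. coli and the combined group lay wholly below the ACs, and the IFN-γ group overlapped them. With IL-4, at 115, 151 and 164, it overlapped the ACs libraries at 91.1, 147 and 188 (0.06 ± 0.28, adjusted p = 0.96).

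Arg1 (ENSMUSG00000019987.9, chromosome 10, 24915221 to 24927484, minus strand), the cytosolic arginase, competes with nitric oxide synthase for arginine. It was at 6090, 6993 and 7065 with ACs and at 3793, 4014 and 5251 with E. coli. With IFN-γ it rose to 24549, 28961 and 30994, and with both stimuli it stood at 8643, 8710 and 12205. All 4 groups were apart, in the order E. coli, ACs, both, IFN-γ.

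Arg1 was 4.18-fold higher with IFN-γ (log2 2.06 ± 0.15 SE, adjusted p = 3.0e-09, limma) and 0.643 of the ACs level with E. coli (-0.64 ± 0.15, adjusted p = 0.0056). The E. coli call was lost without replicate 2 of that group (-0.55). The combination was 1.45-fold above ACs, under the 1.5-fold threshold (0.54 ± 0.15, adjusted p = 0.0067, limma), and 0.347 of the level with IFN-γ alone (-1.53 ± 0.15, adjusted p = 9.2e-07). With upper quartile scaling, or without replicate 1 or 2 of the combined group, its rise over ACs passed 1.5-fold (0.65, 0.62 and 0.62).

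In the IL-4 experiment Arg1 was at 10074, 10730 and 17039 with ACs and at 16986, 17121 and 23371 with IL-4. The groups overlapped only through replicate 3 of the ACs, the shallow library. The difference of 0.63 ± 0.21 (SE) did not pass (adjusted p = 0.35, limma). It was 0.71 without replicate 3 of both groups (adjusted p = 0.0011), 0.87 without that ACs library alone (adjusted p = 0.039) and 0.67 with array weights (adjusted p = 0.00017).

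The sum of the macrophage markers was lower with E. coli and higher with IFN-γ, as was Arg1, but with both stimuli the sum lay below that with ACs while Arg1 lay above. The 9 macrophage markers summed to 12853 to 16565 with ACs, 5370 to 7016 with E. coli, 19661 to 28372 with IFN-γ and 6182 to 6773 with both. The largest part of these sums was C1qc, with means of 8319, 2930, 11870 and 2337, in that order. With IFN-γ, 4 of the 9 were called higher and 1 lower, and Marco, a scavenger receptor, rose by 2.17 ± 0.16 (log2, SE) and Mertk, a receptor for apoptotic cells, by 1.81 ± 0.18. With E. coli 5 were called lower (C1qa, C1qb, C1qc, Timd4 and Vsig4) and the other 4 did not pass, and with both stimuli 2 were called higher, Marco (0.84) and Mertk (0.60), and 5 lower. With IL-4, where the sum ranged from 14454 to 24471 against 18289 to 27402, 2 were called lower, Marco (-2.58) and Vsig4 (-1.36), and the other 7 did not pass. The 10 eosinophil markers summed to 10616 to 12159 with IFN-γ, below every other group, where the lowest sum was 15776. The largest part of the eosinophil sum was Alox15, with means of 9408 with ACs and 5456 with IFN-γ in the Type 1 experiment. The part of macrophage RNA in the Arg1 values, and in those of the other 7 genes, was not tested.

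**Figure D3:**
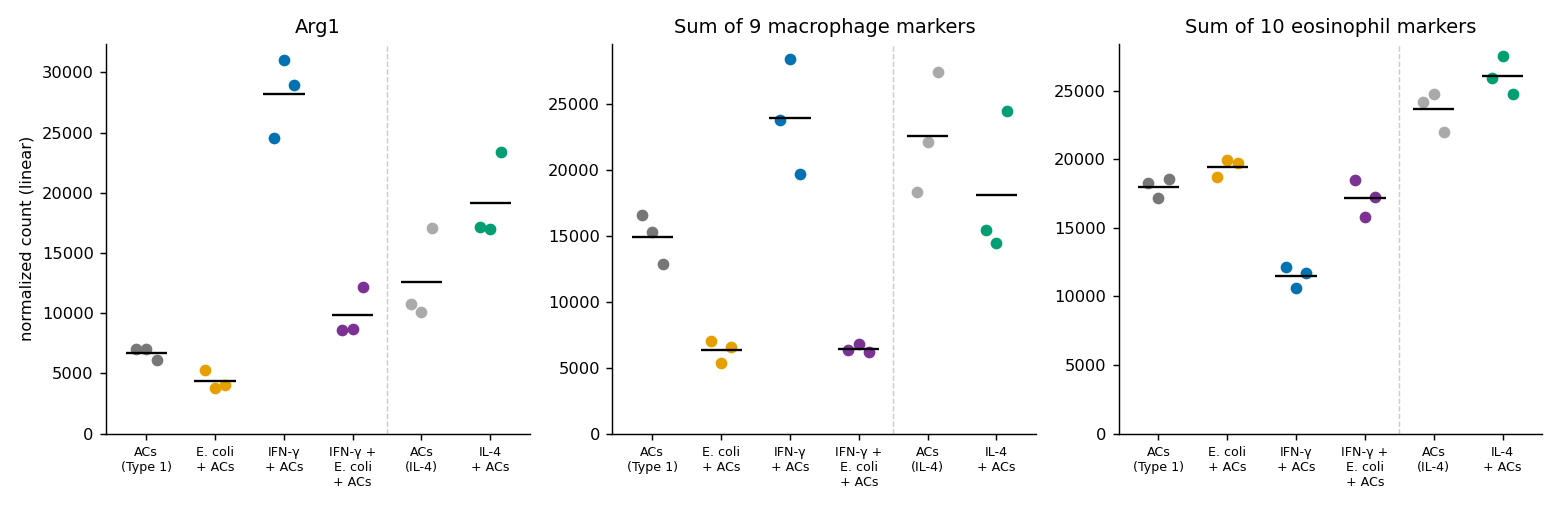
Normalized counts of Arg1, of 9 macrophage markers summed and of 10 eosinophil markers summed, on linear axes from 0, with 1 point per library and a line at the mean of each group of 3. With IFN-γ, Arg1 and the macrophage sum are at their highest in the Type 1 experiment and the eosinophil sum is at its lowest, while with IL-4 the Arg1 mean stands above ACs and the macrophage mean below.

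Arg2 (ENSMUSG00000021125.6, chromosome 12, 79130777 to 79156301, plus strand), the mitochondrial arginase, was rare. It was at 15.02, 16.26 and 17.13 with ACs, at 30.8, 40.1 and 48.6 with E. coli, at 0, 5.28 and 8.02 with IFN-γ and at 8.55, 20.8 and 35.9 with both. The E. coli libraries lay above and the IFN-γ libraries below every ACs library. The value of 0 belonged to IFN-γ + ACs replicate 3, where 3 reads stand for 6.16 normalized counts.

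The fall of Arg2 with IFN-γ was -2.16 ± 0.65 (log2, SE, adjusted p = 0.019, limma). It was -1.19 (adjusted p = 0.089) without replicate 3 of IFN-γ + ACs, and stayed at -2.15 and -2.11 (adjusted p = 0.050 and 0.058) without replicates 1 and 3 of the ACs. E. coli gave 1.23 ± 0.65 (adjusted p = 0.25, limma), which DESeq2 on the recovered reads called higher (adjusted p = 0.032). The combined level was above that with IFN-γ alone (2.36 ± 0.65, adjusted p = 0.015, limma), which did not pass without replicate 3 of either group (1.39, adjusted p = 0.053, and 1.91, adjusted p = 0.072) or with array weights (1.67, adjusted p = 0.081). In the IL-4 experiment the counts overlapped, from 7.38 to 15.4 with IL-4 and from 7.79 to 26.8 with ACs (-0.44 ± 0.62, adjusted p = 0.85). Arg2 overlaps Vti1b on the opposite strand, at 103 to 250 normalized counts, and an antisense transcript, Gm48780, at 0 to 48.3, and the strand setting of the counting is not given in the sources used here.

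Acod1 (ENSMUSG00000022126.6, chromosome 14, 103046977 to 103056573, plus strand), the itaconate enzyme, was called with every stimulus. It was at 51.4, 60.1 and 61.0 with ACs, at 298, 321 and 378 with E. coli, at 844, 1004 and 1172 with IFN-γ and at 1041, 1404 and 1518 with both. The ACs libraries of the IL-4 experiment had 165, 167 and 214, and those with IL-4 had 432, 472 and 653. Every stimulated library was above every ACs library of its experiment, and the combined group overlapped that with IFN-γ.

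The rise of Acod1 was 5.69-fold with E. coli (log2 2.51 ± 0.16 SE, adjusted p = 4.5e-09, limma), 17.1-fold with IFN-γ (4.10 ± 0.16, adjusted p = 8.3e-13) and 22.4-fold with both (4.48 ± 0.16, adjusted p = 1.1e-13). IL-4 raised it 2.81-fold (1.49 ± 0.20, adjusted p = 0.0058, limma). The combination differed from IFN-γ alone by 0.39 ± 0.16, which did not pass (adjusted p = 0.10, limma), and from E. coli alone by 1.98 ± 0.16 (adjusted p = 3.7e-08).

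Ido1 (ENSMUSG00000031551.12, chromosome 8, 24584136 to 24597009, minus strand), which starts tryptophan breakdown, followed IFN-γ. It was at 2.44, 9.79 and 14.1 with ACs and at 3.35, 3.52 and 10.6 with E. coli, which overlapped. With IFN-γ it was at 109, 131 and 154 and with both stimuli at 95.3, 104 and 106, and both groups lay above the other 2.

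Ido1 was 15.9-fold higher with IFN-γ (log2 3.99 ± 0.46 SE, adjusted p = 2.3e-06, limma) and 12.5-fold higher with both (3.64 ± 0.46, adjusted p = 4.7e-06), while E. coli gave -0.43 ± 0.46 (adjusted p = 0.62). The combination lay below IFN-γ alone in all libraries, but by -0.35 ± 0.46 (adjusted p = 0.64, limma). With IL-4 it was at 15.4, 20.9 and 21.6, each above the ACs libraries at 5.36, 5.45 and 12.03, a difference of 1.31 ± 0.59 that did not pass (adjusted p = 0.52). The lowest values of the 2 groups, at 5.36 and 15.4, are 1 and 3 reads in the shallow libraries. The 6 markers of dendritic cells, another cell type known to express Ido1, summed to 134 to 175 with IL-4 and 70.1 to 91.1 with ACs of that experiment. That rise was in Batf3 (mean 124 against 50.8), while the means of Flt3, Zbtb46, Xcr1 and Clec9a were lower with IL-4 and that of Ccr7 was 11.7 against 8.18, and their part in the Ido1 values was not tested.

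Whether the log2 effect of IFN-γ differed with and without E. coli was tested as an interaction on the 12 libraries of the Type 1 experiment. A negative value means a combined fold change smaller than the product of the fold changes of the single stimuli. Whether the rises in counts added up was not tested. Of the 8 genes, 5 had a negative interaction past the threshold, against 4.28% of genes tested, and 0 a positive one, against 3.16%. The median was -1.44, against -0.03 over all genes. The genes fell into 2 kinds by their levels. Nos2 (-3.05 ± 0.25 SE, adjusted p = 5.8e-07, limma), Acod1 (-2.12 ± 0.23, adjusted p = 1.3e-05) and Slc7a2 (-1.98 ± 0.20, adjusted p = 5.2e-06) rose with each stimulus, and the combined level overlapped that with IFN-γ.

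For Ass1 (-2.46 ± 0.48 SE, adjusted p = 0.0034, limma) and Arg1 (-0.89 ± 0.21, adjusted p = 0.012) the combined level lay below that with IFN-γ alone in all libraries. With all 18 libraries in one fit the adjusted p for Arg1 was 0.054. Ido1 (0.08 ± 0.65, adjusted p = 0.97) and Asl (0.04 ± 0.26, adjusted p = 0.95) had values near 0, with wide errors for Ido1, and Arg2 had 1.13 ± 0.92 (adjusted p = 0.52, limma). The combination against IFN-γ alone called 1 of the 8 genes higher (Arg2), against 5.96%, and 2 lower (Arg1 and Ass1), against 8.61%. Against E. coli alone it called 5 higher (Nos2, Arg1, Acod1, Slc7a2 and Ido1), against 9.79%, and 0 lower, against 9.57%. The counts of 0 here and for the positive interaction were also 0 at an unadjusted p under 0.05 and by edgeR and DESeq2. Ass1, at 0.81 ± 0.34 (SE, adjusted p = 0.087, limma) in that comparison, was called by edgeR (0.96, adjusted p = 0.040) and by DESeq2 (0.96, adjusted p = 0.028).

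**Figure D4:**
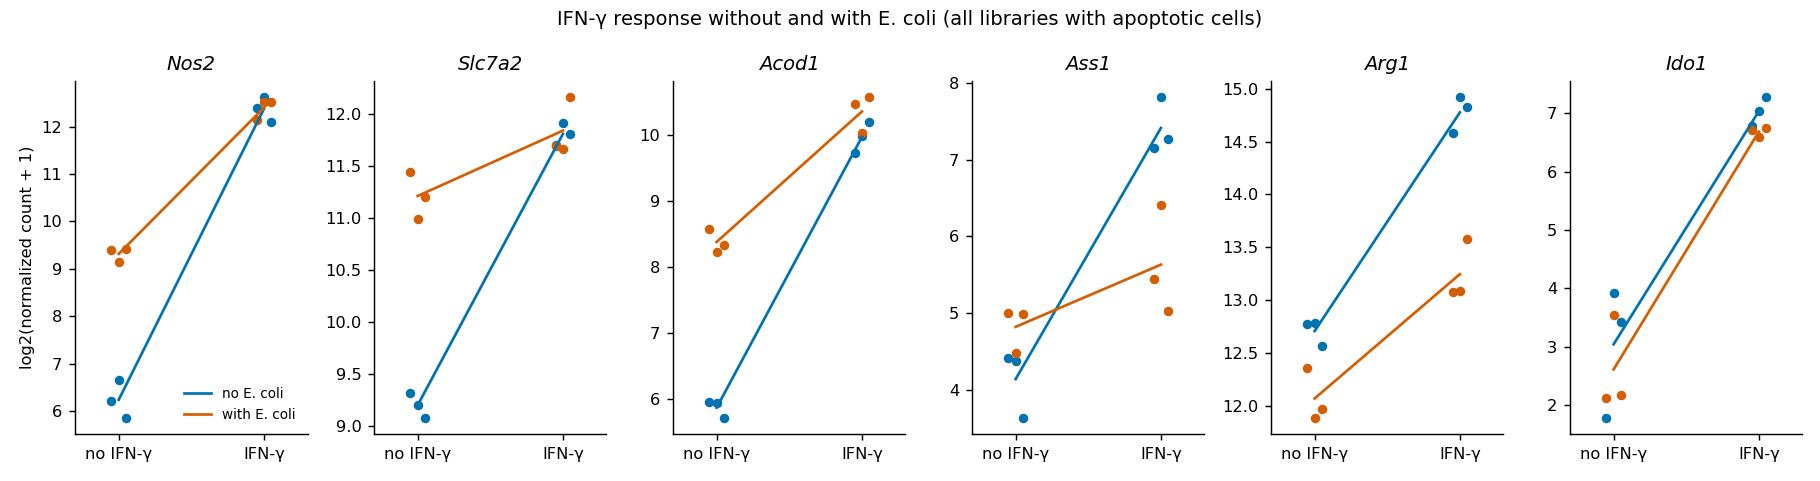
Level as log2(normalized count + 1) without and with IFN-γ, in cultures without E. coli (blue) and with E. coli (orange), with 1 point per library and lines joining the means of 3. The lines meet at the right for Nos2, Slc7a2 and Acod1, while for Ass1 and Arg1 the orange line ends below the blue one. Each panel has its own vertical range.

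The effect of IL-4 was set against each Type 1 effect, each taken from the ACs of its own experiment, in one fit of all 18 libraries. Against the E. coli effect, 1 of the 8 genes was higher (Arg1, 1.27 ± 0.26 SE, adjusted p = 0.0056, limma), against 1.88% of the 10414 genes tested, and 3 were lower (Nos2, Acod1 and Slc7a2), against 2.54%. Against the IFN-γ effect 6 were lower, against 8.09%, and 0 higher, against 6.17%. Against the effect of both stimuli 5 were lower, against 10.8%, and 0 higher, against 9.67%. These counts of 0 were 0 too at an unadjusted p under 0.05, by edgeR and by DESeq2. The difference for Nos2 from the IFN-γ effect was -6.70 ± 0.39 (adjusted p = 1.9e-10, limma), and for Arg1 it was -1.44 ± 0.26 (adjusted p = 0.00059).

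The ACs libraries themselves differed between the experiments. With ACs alone, the mean of the IL-4 experiment was 2.77 times that of the Type 1 experiment for Nos2, 1.88 times for Arg1, 3.17 times for Acod1 and 2.69 times for Slc7a2, with every library of the former above the latter. For Ass1, Asl, Arg2 and Ido1 the ranges overlapped, at ratios of 1.67, 1.255, 1.06 and 0.868. Experiment and culture cannot be told apart in these values, and no test was made.

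Further genes of the same pathways were counted in the same fits. Of 23 further arginine and polyamine genes, 13 were tested in the Type 1 experiment, and 1 was called higher and 2 lower with E. coli, 1 and 1 with IFN-γ, and 2 and 6 with both. Over all genes tested, the shares called higher and lower were 5.05% and 5.25% with E. coli, 11.4% and 9.96% with IFN-γ, and 14.7% and 17.2% with both. A count of 1 among 13 genes does not tell this list from all genes. The rate-limiting enzyme of polyamine synthesis, Odc1, rose with E. coli (log2 0.62 ± 0.16 SE, adjusted p = 0.013, limma) and with both stimuli (0.86 ± 0.16). Spermine oxidase, Smox, rose with IFN-γ (1.51 ± 0.23, adjusted p = 6.2e-05, limma) and with both (1.28 ± 0.23). Spermidine synthase, Srm, fell with both (-2.05 ± 0.34, adjusted p = 8.8e-05), and Paox, a polyamine oxidase, fell with E. coli (-1.88 ± 0.40) and with both (-1.99 ± 0.40). In this list, calls were lost under another scaling or count test for Sms and Oaz2.

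Nitric oxide synthase needs tetrahydrobiopterin, which Gch1, Pts and Spr make and Qdpr regenerates. Of 14 further nitric oxide genes 7 were tested, 0 were called higher with any stimulus by limma, edgeR or DESeq2 (1, 2 and 0 at an unadjusted p under 0.05), and 1, 3 and 3 were called lower with E. coli, IFN-γ and both, against 5.25%, 9.96% and 17.2% of all genes. Pts fell by 0.59, 0.80 and 1.11 on the log2 scale with the 3 stimuli (adjusted p = 0.030, 0.0019 and 5.2e-05, limma), the first of which was not called with upper quartile scaling. Spr fell with IFN-γ (-0.94 ± 0.28 SE, adjusted p = 0.018) and with both (-2.20 ± 0.28, adjusted p = 5.4e-06, limma). Qdpr did so too (-1.15 ± 0.23, adjusted p = 0.00079, and -1.67 ± 0.23, adjusted p = 9.8e-06, limma). Gch1, the first enzyme, stood at 0.56 ± 0.12 with IFN-γ (adjusted p = 0.0023), under 1.5-fold, and at -0.02 ± 0.12 with both (adjusted p = 0.91, limma). The median of these 7 genes was -0.59 with E. coli, 0.01 with IFN-γ and -0.71 with both, against 0.00, 0.00 and -0.05 over all genes tested.

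Of 10 further amino acid carriers 6 were tested. Slc3a2, the heavy chain shared by several carriers of amino acids, rose with E. coli (0.85 ± 0.11, log2, SE), IFN-γ (1.09 ± 0.11) and both (1.19 ± 0.11, adjusted p = 1.3e-07, limma). Its partner Slc7a7, which carries cationic amino acids outward, fell with IFN-γ (-1.74 ± 0.49, adjusted p = 0.013, limma) and with both (-2.38 ± 0.49, adjusted p = 0.00080). With both stimuli 2 of the 6 were called higher, against 14.7% of all genes, and 2 lower, against 17.2%, the latter including the mitochondrial ornithine carrier Slc25a15 (-2.13).

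Around itaconate, 18 of 19 further genes of the citric acid cycle and its neighbours were tested, and 1 was called higher and 2 lower with E. coli, 1 and 1 with IFN-γ, and 0 and 5 with both, where 1 was higher at an unadjusted p under 0.05 and 0 by edgeR or DESeq2. Over all genes the shares were 5.05% and 5.25%, 11.4% and 9.96%, and 14.7% and 17.2%. A count of 1 among 18 genes does not tell this list from all genes either. The mitochondrial isocitrate dehydrogenase Idh2 fell with IFN-γ (-1.49 ± 0.41, log2, SE, adjusted p = 0.012, limma) and with both (-2.53). Its cytosolic counterpart Idh1 fell with E. coli (-0.95 ± 0.18, adjusted p = 0.0011, limma) and with both (-1.06). Idh3a (-1.40), Slc25a1 (-1.09) and Suclg1 (-0.68) were the other 3 called lower with both, and the last 2 lost the call under DESeq2 and upper quartile scaling, respectively.

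Of 14 further tryptophan and kynurenine genes 4 were tested. With E. coli 0 were called, with IFN-γ 1 was called higher and 0 lower, and with both 1 higher and 1 lower. Over all genes the shares were 5.05% and 5.25%, 11.4% and 9.96%, and 14.7% and 17.2%. At an unadjusted p under 0.05, 1 was lower with E. coli. The lower call, for Qprt, was not made by edgeR or DESeq2. Its counts were 13.1 to 21.6 with ACs and 0 to 15.7 with both. Wars, the tryptophanyl-tRNA synthetase, rose by 2.12 ± 0.17 with IFN-γ (log2, SE, adjusted p = 2.0e-08, limma) and by 3.14 with both. Its counts were 93.0 to 115 with ACs, 72.8 to 92.4 with E. coli, 429 to 464 with IFN-γ and 688 to 1100 with both, so the combined group lay above IFN-γ alone, unlike Ido1. With IL-4, 0 further genes of the 5 lists were called, of 18 arginine and polyamine, 7 nitric oxide, 6 carrier, 19 itaconate and 5 tryptophan genes tested. At an unadjusted p under 0.05 there were 5 higher and 4 lower among them. EdgeR and DESeq2 each called 3 of the genes, of which Il4i1 and Gatm, a glycine amidinotransferase that uses arginine, were higher and Smox lower. Il4i1, a secreted oxidase of aromatic amino acids, had 28.4 to 82.2 normalized counts with IL-4 and 3.76 to 10.1 with ACs and did not pass (2.62 ± 0.59, adjusted p = 0.090, limma). With means of 6.41 with ACs and 47.2 with IL-4, Il4i1 reached the minimum mean of 10 only through the IL-4 group. No gene called in these lists changed sign under upper quartile scaling, edgeR or DESeq2.

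**Figure D5:**
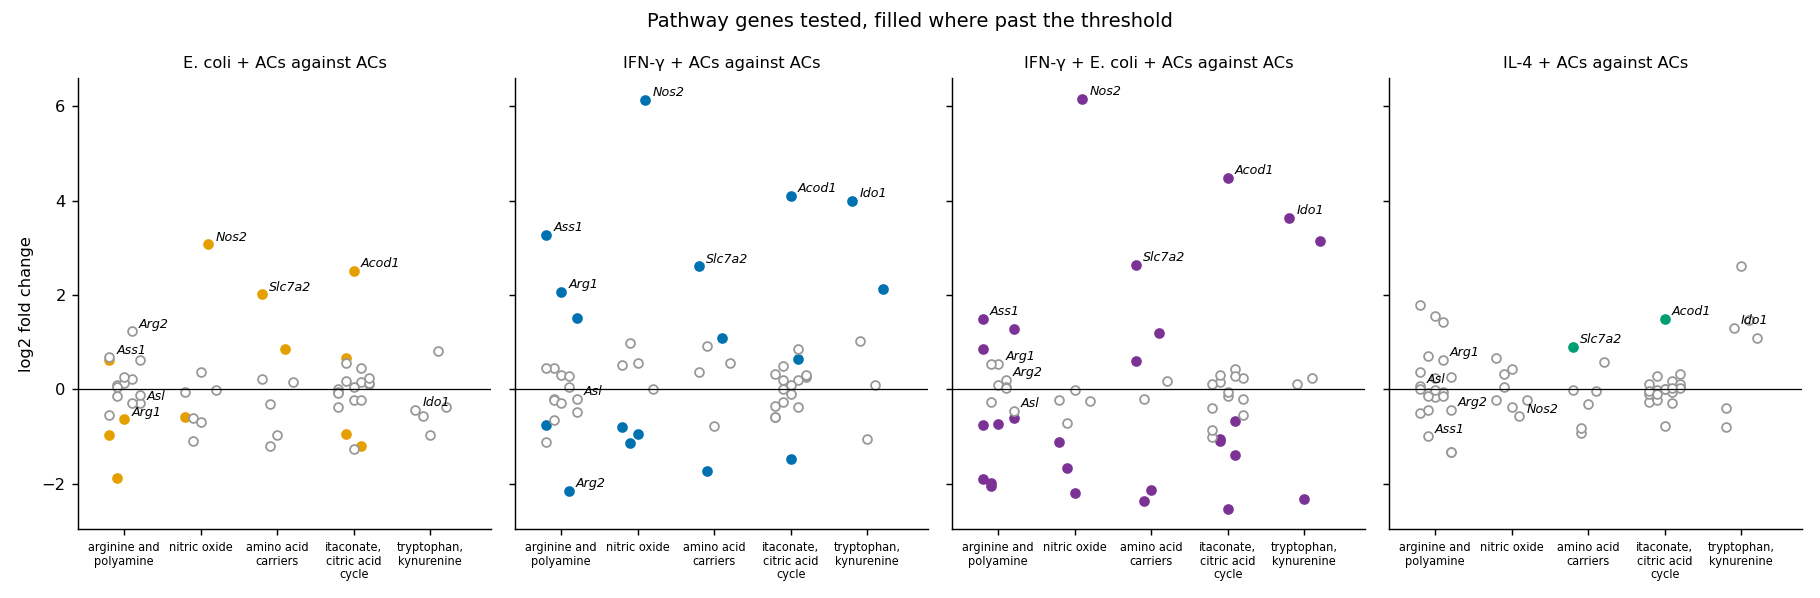
Log2 fold change of every tested gene of 5 pathway lists, with 1 panel per stimulus, each against ACs of its own experiment. Filled points passed an adjusted p of 0.05 and 1.5-fold, and the 8 enzymes and carriers described above are labelled. Most filled points below 0 are in the panel of IFN-γ + E. coli + ACs.

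The transcripts whose levels ran closest to each of the 8 were found by Pearson r of log2(normalized count + 1) over the 12 libraries of the Type 1 experiment, among 6746 genes, as a description. These libraries fall into 4 groups of 3 and share their scaling. Nos2 ran closest to Prdx5 (0.994) and Pfkfb3 (0.988). Acod1 ran closest to Gclm (0.997) and Srxn1 (0.992), and Slc7a2 to Tgif1 (0.989), Cox7c (0.987) and Procr (0.986). For Arg1 they were Mertk (0.985), Axl (0.983) and Lpl (0.982), of which Mertk is among the macrophage markers. The r of Arg1 with the other 8 markers was 0.980 for Marco, 0.85 for Timd4, 0.739 for C1qb, 0.607 for C1qc, 0.41 for C1qa, 0.359 for Vsig4, 0.32 for Csf1r and 0.20 for Fcgr1. For Ass1 they were Akr1a1 (0.987), H2-DMa (0.967) and Lgals3 (0.961), and for Ido1 Fgl2 (0.967), Trim25 (0.959) and Scfd1 (0.959). Asl (Nup214, 0.947) and Arg2 (Champ1, 0.930) had lower highest values.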

How the data were processed

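The authors deposited 1 signal per gene and library, the read count on the gene divided by a DESeq2 size factor. The submitters' processing notes name FastQC 0.11.5, Trim Galore, cutadapt 1.10, TopHat2 2.1.0, Bowtie2 2.2.6, HTSeq 0.6.1, DESeq2 1.26.0 and GRCm38, while the study's methods also describe another pipeline. Which one made the table is not given in the sources used here. Of 54446 identifiers, 54409 matched a symbol. Values were whole multiples of 1 read within 0.0051 for 99.99% to 100.0% of genes, so reads were recovered. Replicates of a group differed by chi-square per degree of freedom of 3.92 to 13.15. The study states 3 biological replicates, and its figure legend on eosinophils with ACs gives a separate mouse for each lane. The labels do not link these libraries to animals, so p-values measure the spread between these libraries.

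Limma 3.58.1 (R 4.3.3, eBayes with trend) was fitted to log2(normalized count + 1) of genes with a mean of at least 10, on the 12 libraries of the Type 1 experiment, the 6 of the IL-4 experiment, or all 18 for differences between experiments. The +1 understates changes of low genes. The fits were tested on simulated data. Alternatives tried were adding 5 in place of 1, all genes above 0, a mean of at least 50, a replicate block, upper quartile scaling, array weights, no fold threshold, all 18 libraries in one fit, each library left out, and count tests of the recovered reads with edgeR 4.0.16 or DESeq2 1.42.0. EdgeR called 533 genes higher and 694 lower with E. coli, 1129 and 1098 with IFN-γ, 1532 and 1744 with both, and 127 and 85 with IL-4. Named genes were the 8, genes of the pathway lists past the threshold with a stimulus, and the 3 most like each, apart from an item not reported here. Gch1, Gatm, Il4i1 and the macrophage markers given were named beside them, Gch1, Gatm and Il4i1 after their values were seen. The 8 genes and the lists were chosen with earlier results of these data known. Figures were drawn with matplotlib 3.10.9 in Python 3.11.15.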

Additional observations from a re-analysis of the deposited data

Results flagged for a closer look

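The log2 fold change with IFN-γ differed with and without E. coli, by the interaction in limma on 12 libraries, for Nos2 (log2 -3.05), Arg1 (-0.89), Ass1 (-2.46), Acod1 (-2.12) and Slc7a2 (-1.98). Additivity on the scale of counts was not tested.

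The effect of IL-4 differed from that of E. coli, each against its own ACs and by limma on 18 libraries, for Nos2 (-3.65), Arg1 (1.27), Acod1 (-1.02) and Slc7a2 (-1.11). It differed from that of IFN-γ for Nos2 (-6.7), Arg1 (-1.44), Ass1 (-4.27), Acod1 (-2.61), Slc7a2 (-1.71) and Ido1 (-2.68). It differed from that of IFN-γ with E. coli for Nos2 (-6.73), Ass1 (-2.49), Acod1 (-2.99), Slc7a2 (-1.74) and Ido1 (-2.33). The stimulus and the experiment it was done in cannot be told apart in these differences. The difference for Acod1 from E. coli lost its call in 5 alternatives and that for Ido1 from both stimuli in 3, with adjusted p from 0.052 to 0.073, while the values were -0.90 to -1.02 for Acod1 and -1.70 to -2.33 for Ido1.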

How the results depend on the processing

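No value of the 8 genes that was called changed sign under any alternative, and of the values per gene 1813 stayed on their side of the threshold, 15 passed it and 21 lost it. With a minimum mean of 50, where Arg2 was not tested, the count called lower with IFN-γ and that called higher with both stimuli over IFN-γ alone went from 1 to 0, and the latter was 0 with array weights too. The count called lower with IL-4 went from 0 to 1 (Nos2) with array weights and without replicate 3 of both groups. When single libraries were left out, the count lower with E. coli was 0 to 1, lower with IFN-γ 0 to 1, higher with both over IFN-γ 0 to 1, higher with IL-4 1 to 3, and higher for IL-4 against the E. coli effect 1 to 2. The second gene of the last count was Ido1, without replicate 1 of the Type 1 ACs (2.37, adjusted p = 0.034, limma). The cause of these changes was not tested. Over all genes, IL-4 called 79 higher and 37 lower, against 389 and 356 with array weights, 127 and 85 with edgeR, 128 and 81 with DESeq2 and 345 and 311 without replicate 3 of both groups. Upper quartile scaling moved the share of calls that were higher from 46.1% to 57.1% with both stimuli, from 40.9% to 55.9% for both over IFN-γ, and from 47.3% to 25.6% for IL-4 minus both, where the median of all genes went from 0.04 to -0.20. Deviations of same-numbered libraries from their group means had correlations from -0.089 to 0.085 in the Type 1 experiment and 0.001 to 0.021 in the IL-4 experiment. These values, over all genes with a mean of at least 10, cannot decide whether the numbers pair the libraries. Replicate 3 was the shallow library in both groups of the IL-4 experiment. With the replicate block the IL-4 calls over all genes were 45 higher and 29 lower, and the counts of the 8 genes called did not change. Depth limits Arg2, Ass1 and Ido1, which rest on few reads.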
